A study of Homo sapiens with 12 samples.

Results

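The 32 genes described here act in G2, the gap between DNA replication and division, and in mitosis. They were taken as a list of symbols, chosen with earlier results of these data known. The symbols were matched through Ensembl identifiers to 32 of the 60708 gene rows of each library. All 32 were among the 15388 genes tested. Messenger RNA was sequenced from hTERT RPE-1, a human retinal pigment epithelial line made immortal with telomerase, in 4 clonal stable lines with 3 biological replicates each (12 libraries). The clones mCherry_3 and mCherry_4 overexpressed the red fluorescent protein mCherry and served as controls. LmnB1_6 and LmnB1_16 overexpressed mCherry joined to lamin B1, a filament protein that lines the inside of the nuclear envelope. All clones, controls included, received doxycycline at 0.05 ug/mL for 24 hours and grew in medium with hygromycin B, so neither agent differs between the groups. Each line is 1 clone and each construct is represented by 2, so a difference between constructs rests on 2 clones a side. Unless stated otherwise, a level is in CPM, counts relative to library size scaled with TMM factors, and a mean ± SD is over the 3 libraries of a clone (n = 3).

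Cells enter mitosis when the kinase CDK1, bound to cyclin A or B, is switched on by CDC25 phosphatases. Polo-like and Aurora kinases then build the spindle, a checkpoint holds chromosome separation until every chromosome is attached, and the anaphase-promoting complex destroys cyclin B before the cell is cut apart. The mRNAs of these proteins are known to rise late in the cell cycle, through promoters with CCAAT boxes and the cell cycle genes homology region (CHR), which bind the factor NF-Y and the MuvB complexes with B-MYB, FOXM1 or the DREAM repressor. In a mixed culture their level therefore depends on how many cells are cycling, and in these bulk libraries fewer cells in G2 or mitosis and less RNA per such cell cannot be told apart.

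LMNB1, the gene the fusion carries, was measured first as a check of the labels. The control clones mCherry_3 and mCherry_4 held 84.98 ± 7.12 and 161 ± 7.29 CPM and the fusion clones LmnB1_6 and LmnB1_16 held 3976 ± 164 and 3374 ± 273. Each library thus went with the construct of its label. This check cannot tell which of the 2 clones of a construct a library came from. Libraries held 20.6 to 29.5 M estimated counts, and mitochondrial transcripts took 2.06% to 2.69% of them. The defining pigment epithelium genes RPE65 and TYR were at 0 in all 12 libraries, RLBP1 and BEST1 were under 1 CPM, and MITF and OTX2 were near or at 0 in LmnB1_6 but not in the other clones. The simple epithelial keratins KRT8 and KRT18 were present in every clone.

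RefSeq promoter windows (GRCh38.p14, 250 bases before to 50 after a start site) were at hand for 27 of the 32 genes, with 36 windows in all. AURKA, BIRC5, TTK, UBE2C and TPX2 had no entry. Letters were searched on both strands for the CHR (TTTGAA), the CCAAT box (CCAAT) and an E2F core (TTCCCGC). The 6 windows printed here, 5′ to 3′ on the strand of the gene, belong to members that the comparisons turn on. KIF20A and CDK1 had the largest and the smallest difference between the mCherry clones. CDC20 and PLK1 show a CHR and a CCAAT box in the same window, TOP2A separated the LmnB1 clones, and KIF2C was called between the constructs. Capitals mark the CHR and CCAAT letters in either orientation (TTCAAA and ATTGG on the other strand). The windows lie at chr5:138178862-138179161 (KIF20A, plus strand), chr10:60778228-60778527 (CDK1, plus), chr1:43358731-43359030 (CDC20, plus), chr16:23678639-23678938 (PLK1, plus), chr17:40417847-40418146 (TOP2A, minus) and chr1:44739587-44739886 (KIF2C, plus).
KIF20A: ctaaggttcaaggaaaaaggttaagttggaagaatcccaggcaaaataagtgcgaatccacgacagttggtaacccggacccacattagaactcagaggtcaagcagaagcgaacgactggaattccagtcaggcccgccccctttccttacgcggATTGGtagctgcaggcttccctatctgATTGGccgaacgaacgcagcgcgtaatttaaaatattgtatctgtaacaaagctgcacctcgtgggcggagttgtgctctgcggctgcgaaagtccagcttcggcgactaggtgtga
CDK1: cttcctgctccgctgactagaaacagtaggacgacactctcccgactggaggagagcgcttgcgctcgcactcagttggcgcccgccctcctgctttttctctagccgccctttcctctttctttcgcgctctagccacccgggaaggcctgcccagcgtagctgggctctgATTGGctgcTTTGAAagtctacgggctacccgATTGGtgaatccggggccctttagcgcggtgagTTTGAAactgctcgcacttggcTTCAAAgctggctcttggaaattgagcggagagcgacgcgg
CDC20: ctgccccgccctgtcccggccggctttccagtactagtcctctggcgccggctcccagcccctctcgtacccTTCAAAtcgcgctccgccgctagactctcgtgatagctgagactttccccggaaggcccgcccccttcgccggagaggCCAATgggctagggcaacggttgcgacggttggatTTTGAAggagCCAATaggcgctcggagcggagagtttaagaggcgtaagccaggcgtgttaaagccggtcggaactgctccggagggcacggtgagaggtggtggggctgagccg
PLK1: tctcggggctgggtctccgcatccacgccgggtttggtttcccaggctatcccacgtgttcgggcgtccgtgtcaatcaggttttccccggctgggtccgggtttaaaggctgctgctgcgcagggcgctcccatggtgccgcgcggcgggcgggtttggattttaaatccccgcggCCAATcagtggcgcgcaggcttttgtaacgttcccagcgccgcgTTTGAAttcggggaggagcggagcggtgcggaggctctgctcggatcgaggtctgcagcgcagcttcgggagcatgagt
TOP2A: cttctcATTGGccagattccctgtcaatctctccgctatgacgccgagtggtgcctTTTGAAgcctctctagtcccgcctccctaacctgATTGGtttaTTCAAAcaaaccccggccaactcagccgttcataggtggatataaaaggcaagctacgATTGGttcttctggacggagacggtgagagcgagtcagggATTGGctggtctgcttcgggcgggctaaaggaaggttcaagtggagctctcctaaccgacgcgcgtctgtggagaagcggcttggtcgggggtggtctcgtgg
KIF2C: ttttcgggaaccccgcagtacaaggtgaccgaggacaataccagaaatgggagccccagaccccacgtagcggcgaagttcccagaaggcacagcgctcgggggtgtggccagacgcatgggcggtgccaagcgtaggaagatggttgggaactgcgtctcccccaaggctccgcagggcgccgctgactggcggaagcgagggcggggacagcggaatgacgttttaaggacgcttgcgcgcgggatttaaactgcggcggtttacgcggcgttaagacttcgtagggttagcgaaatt

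The KIF20A window held 2 CCAAT boxes and no match of the CHR letters TTTGAA, and the CDK1 window 3 CHR and 2 CCAAT matches. The KIF2C window held neither. A CHR was found in 21 of the 36 windows (58.33%), against 15.16% of all 35116 RefSeq windows of the same length and 3.448% of the 29 windows of 21 genes of G1/S and DNA replication. Windows of the same gene can overlap, as for AURKB, so a site can be counted more than once. By gene, 18 of 27 members (66.67%) had a CHR in a window, against 18.17% of all 27305 genes and 4.762% of the G1/S genes. CCAAT was found in 72.22% of the members' windows, 34.61% of all windows and 72.41% of the G1/S windows. Both motifs stood in the same window in 50% of the members' windows and 5.903% of all windows. The E2F core was in 11.11% of the members' windows, 31.03% of the G1/S windows and 6.553% of all windows. A CHR starting within 50 bases of the start site was found in 44.44% of the members' windows and 4.619% of all windows. In the plot of motif positions, many CHR matches lie close to the start with CCAAT boxes upstream of them, as in PLK1 with CCAAT at -73 and the CHR at -29. Other windows differ: in CDC20 a CHR at -65 lies upstream of a CCAAT box at -55. In TOP2A the CHR matches at -194 and -151 lie upstream of CCAAT boxes at -93 and -53. There was 1 overlapping pair of matches. These are matches of letters, and whether a factor binds there was not measured.

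**Figure D1:**
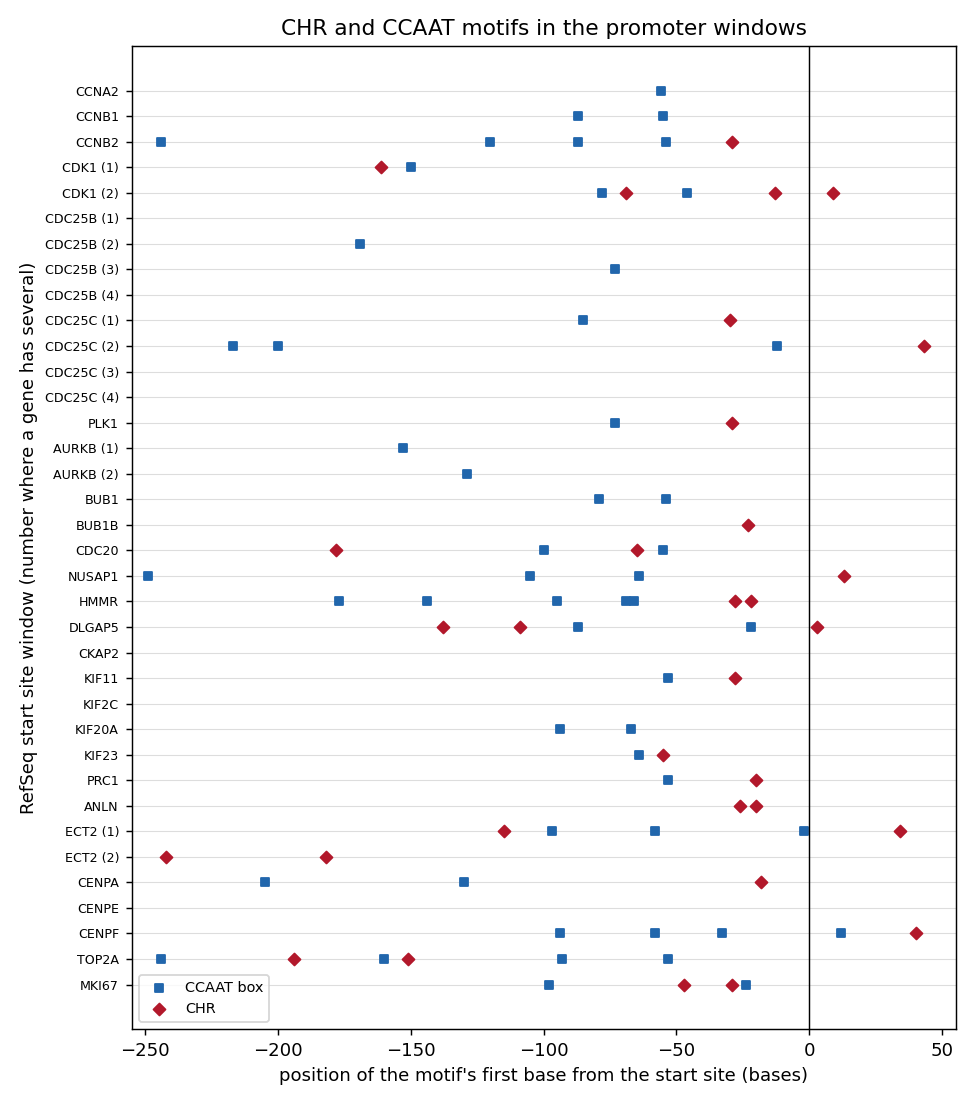
Position of each CCAAT box (blue squares) and CHR (red diamonds) in the 36 RefSeq promoter windows of 27 members, in bases from the start site (black line); genes with several start sites have a row for each. CHR matches occur in 21 windows and CCAAT matches in 26, and 16 windows have a CHR that starts within 50 bases of the start site.

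All 32 genes were lowest in mCherry_3. For each of them, all 3 mCherry_3 libraries lay below the other 9 libraries, a pattern that 13.8% of all tested genes showed. Relative to the mean of the 12 libraries on a log2 scale, the median member stood at -0.90, -0.75 and -0.76 in the mCherry_3 libraries and between 0.14 and 0.35 in the other 9. The clone means of a member spanned a median of 1.17 on the log2 scale, against 0.46 for all tested genes. Libraries of the same clone differed by a median SD of 0.10 for the members and 0.13 for all tested genes. The gap between the highest mCherry_3 library and the lowest of the other 9 was narrowest for CDK1, at 1.21-fold, and widest for CCNB1, CDC20 and KIF20A, at 2.12-fold, 2.17-fold and 2.19-fold.

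**Figure D2:**
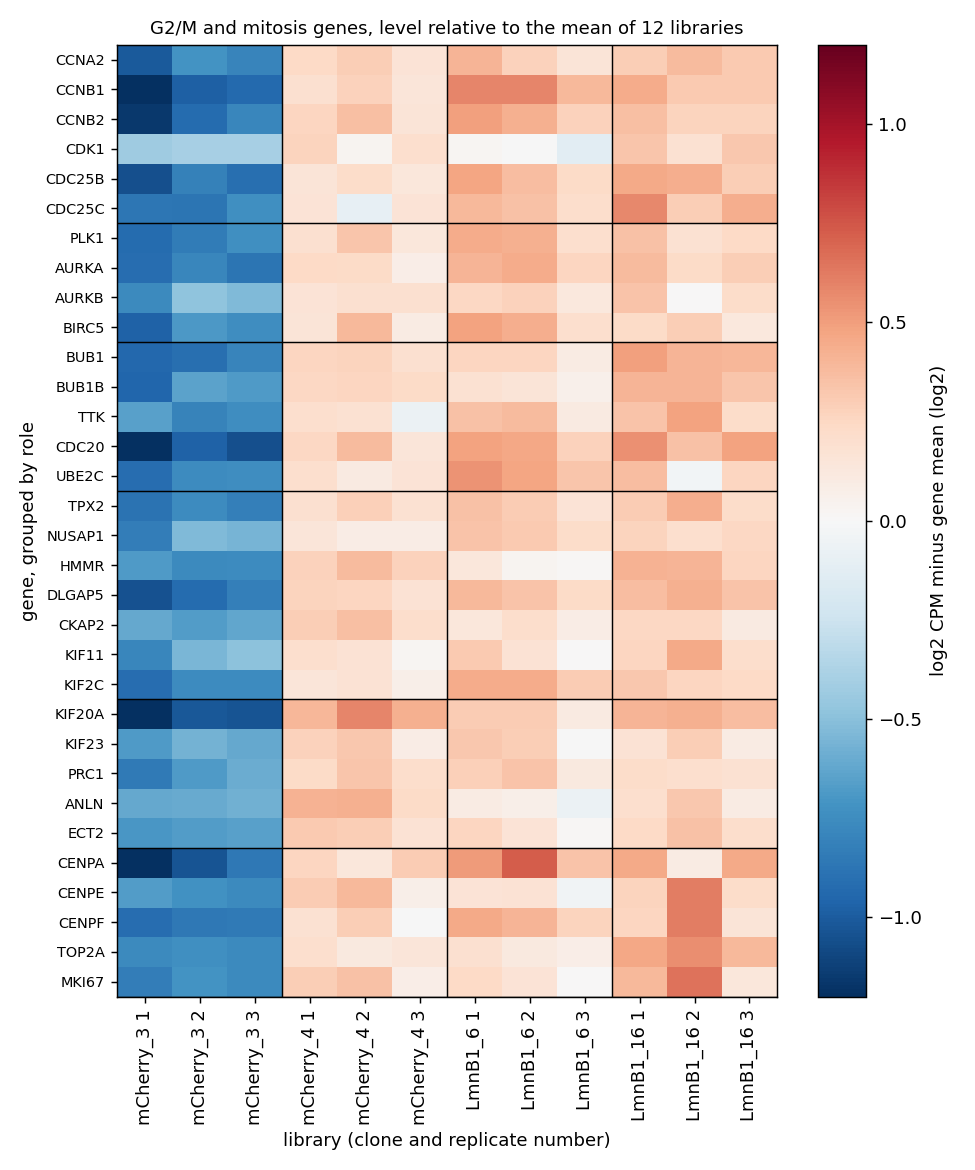
Level of the 32 genes (rows, grouped by role) in the 12 libraries (columns), as log2 CPM minus the gene's mean over the libraries. The 3 mCherry_3 columns are below 0 for every gene, and the other 9 columns lie mostly above 0.

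The contrast of mCherry_4 with mCherry_3 compares clones that carry the same control protein. All 32 members were higher in mCherry_4 by edgeR's quasi-likelihood test at a Benjamini-Hochberg adjusted p under 0.05, where 19.9% of all tested genes were called higher and 17.4% lower. The fold changes ran from 1.49 for CDK1 to 2.99 for KIF20A, and 16 of the 32 were at least 2-fold. How many of all tested genes reached 2-fold was not counted. Their median log2 fold change was 1.01, while that of all tested genes was 0.01. The count was 32 in each of the 13 alternatives run, 6 of which left out a library.

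Among the genes of entry into mitosis, CCNA2, which encodes cyclin A2, had the highest mean CPM, which is not scaled by length (ENSG00000145386.11, chromosome 4, 121816444 to 121823933, GRCh38). Its libraries measured 70.6, 86.03 and 81.6 CPM in mCherry_3, 167, 174 and 158 in mCherry_4, 188, 172 and 158 in LmnB1_6, and 173, 184 and 176 in LmnB1_16. The log2 fold change of mCherry_4 over mCherry_3 was 1.07 (SE 0.08, edgeR adjusted p = 2.5e-08). The 9 libraries outside mCherry_3 overlapped and none came near it. CCNB1 and CCNB2 encode the B cyclins that drive mitosis itself. CCNB1 averaged 43.4 ± 6.42, 105 ± 4.76, 131 ± 10.1 and 117 ± 6.37 CPM in mCherry_3, mCherry_4, LmnB1_6 and LmnB1_16, and CCNB2, in the same order, 33.75 ± 4.38, 77.8 ± 5.35, 85.8 ± 6.26 and 79.8 ± 3.08. CDK1, their kinase partner (ENSG00000170312.16, chromosome 10, 60778331 to 60794852), moved least. It measured 95.9, 97.5 and 97.4 CPM in the mCherry_3 libraries and 155, 132 and 148 in those of mCherry_4, a log2 fold change of 0.58 (SE 0.07, edgeR adjusted p = 4.22e-06). The phosphatase genes CDC25B and CDC25C, whose products switch CDK1 on, had log2 fold changes of 1.09 and 0.91.

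Of the mitotic kinases, PLK1 and AURKA, which mature the spindle poles, differed by a log2 fold change of 1.05 and 1.04 between the mCherry clones. AURKB, the kinase of the chromosomal passenger complex that corrects faulty attachments, differed by 0.77. BIRC5 encodes survivin, a partner of AURKB, and had the highest mean CPM of this group (ENSG00000089685.15, chromosome 17, 78214186 to 78225636). Its libraries measured 89.4, 109 and 105 CPM in mCherry_3, 196, 230 and 188 in mCherry_4, 245, 238 and 203 in LmnB1_6, and 206, 215 and 191 in LmnB1_16. The mCherry clones differed by a log2 fold change of 1.02 (SE 0.09, edgeR adjusted p = 3.48e-07). The libraries of the other 3 clones overlapped.

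BUB1, BUB1B and TTK encode parts of the checkpoint that senses unattached chromosomes, and CDC20 and UBE2C parts of the anaphase-promoting machinery that the checkpoint restrains. CDC20 (ENSG00000117399.14, chromosome 1, 43358955 to 43363203) measured 54.4, 70.05 and 66.0 CPM in mCherry_3 and 163, 178 and 152 in mCherry_4. In the LmnB1 clones it measured 192, 190.1 and 166 (LmnB1_6) and 201, 176 and 192 (LmnB1_16). The mCherry clones differed by a log2 fold change of 1.37 (SE 0.09, edgeR adjusted p = 1.16e-08). That was the second largest value among the members, and every mCherry_4 library was more than 2-fold above every mCherry_3 library. BUB1, BUB1B, TTK and UBE2C had log2 fold changes of 1.12, 1.00, 0.84 and 0.96.

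The spindle assembly genes TPX2 (an activator of Aurora A on microtubules), NUSAP1, HMMR and DLGAP5 (binders of spindle microtubules) and CKAP2 encode non-motor proteins, and KIF11 and KIF2C encode a motor that pushes the poles apart and a kinesin that takes microtubules down. Between the mCherry clones they differed by log2 fold changes of 0.74 (KIF11 and NUSAP1) to 1.16 (DLGAP5). TPX2 had the highest mean CPM of them (ENSG00000088325.16, chromosome 20, 31739271 to 31801805). It measured 145, 159 and 152 CPM in mCherry_3, 307, 327 and 305 in mCherry_4, 342, 332 and 300.5 in LmnB1_6, and 331, 364 and 313 in LmnB1_16. Its log2 fold change between the mCherry clones was 1.04 (SE 0.07, edgeR adjusted p = 8.73e-09). As with CCNA2, the 3 clones other than mCherry_3 overlapped.

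The proteins of the central spindle and of cytokinesis complete division. PRC1 bundles the midzone microtubules, KIF20A and KIF23 are midzone motors, ECT2 activates RhoA, and ANLN, anillin, is a scaffold of the contractile ring. KIF20A (ENSG00000112984.12, chromosome 5, 138178719 to 138187715) measured 44.7, 53.5 and 53.0 CPM in mCherry_3, 143, 164 and 146 in mCherry_4, 134, 134 and 117 in LmnB1_6, and 144, 146 and 141 in LmnB1_16. Its log2 fold change of 1.58 between the mCherry clones (SE 0.08, edgeR adjusted p = 5.27e-10) was the largest of the 32. ANLN (ENSG00000011426.11, chromosome 7, 36389806 to 36453791) measured 294, 296 and 301 CPM in mCherry_3 and 603, 606 and 530 in mCherry_4. It was at 483, 474 and 428 in LmnB1_6 and 517, 564 and 482 in LmnB1_16. The mCherry clones differed in ANLN by a log2 fold change of 0.96 (SE 0.07, edgeR adjusted p = 2.81e-08). For both genes the 3 mCherry_4 libraries lay above all 3 LmnB1_6 libraries. KIF23, PRC1 and ECT2 did not differ detectably between LmnB1_6 and mCherry_4, with log2 fold changes of -0.03, -0.01 and -0.11 that did not pass the test.

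Of the centromere and chromosome genes, CENPA encodes the histone variant that marks centromeres, CENPE and CENPF kinetochore proteins, TOP2A the topoisomerase that untangles sister chromosomes, and MKI67 the proliferation marker Ki-67. MKI67 (ENSG00000148773.14, chromosome 10, 128096659 to 128126385) had the highest CPM of all 32 members. Its libraries measured 390.4, 422 and 409.5 in mCherry_3, 854, 887 and 734 in mCherry_4, 821, 779 and 696 in LmnB1_6, and 911, 1092 and 762 in LmnB1_16. The mCherry clones differed by a log2 fold change of 1.02 (SE 0.10, edgeR adjusted p = 1.36e-06). LmnB1_16 held the 2 highest libraries, and the 3 clones other than mCherry_3 overlapped. CENPA, at 9.14 ± 1.64 CPM in mCherry_3 and 22.7 ± 1.37 in mCherry_4, was low in every clone but differed by a log2 fold change of 1.31. Per length, in the deposited TPM averaged over the clones, members ranged from 13.4 for CDC25C, 20.02 for CENPE and 27.3 for TTK to 169 for ANLN, 192 for PRC1 and 198 for UBE2C. By TPM, CDK1 (124), PLK1 (132) and NUSAP1 (165) were above CCNA2 (86.8), BIRC5 (122) and TPX2 (127), in that order.

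**Figure D3:**
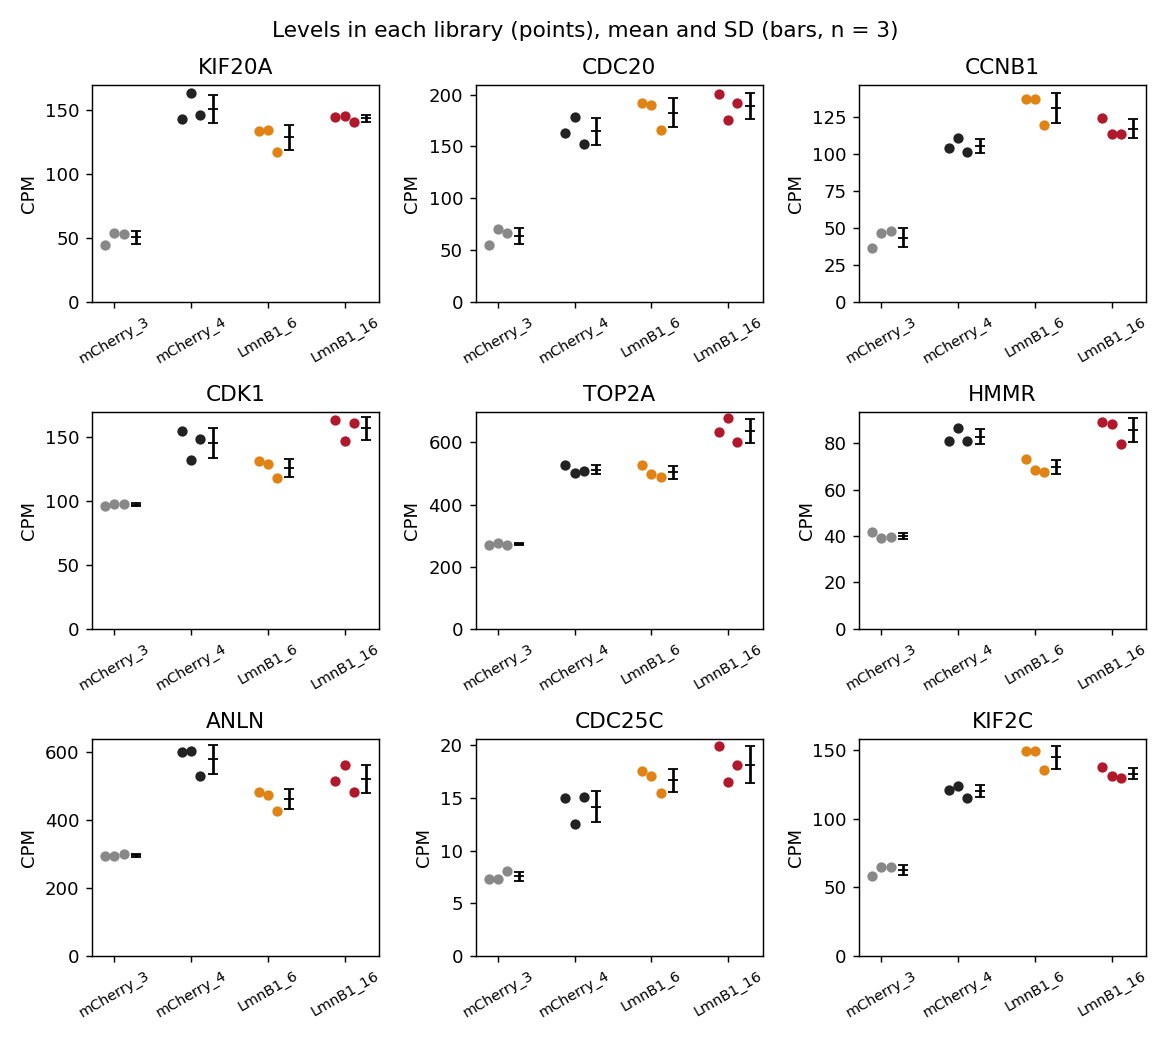
CPM of 9 members in each library (points) with the mean and SD of each clone (bars, n = 3), on axes that start at 0. All 3 mCherry_3 libraries are lowest in each panel, and the order of the other 3 clones differs from gene to gene.

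The LmnB1 clones were each set against mCherry_3 as well. All 32 members were higher in LmnB1_6, where 26% of all tested genes were called higher and 26.8% lower, and all 32 in LmnB1_16, where 22.5% were called higher and 22% lower. Over the members, the log2 fold change had a median of 1.09 in LmnB1_6, from 0.38 (CDK1) to 1.60 (CENPA), and 1.11 in LmnB1_16, from 0.69 (CDK1) to 1.58 (CDC20). At least 2-fold differences were found for 18 members in LmnB1_6 and 23 in LmnB1_16. The share of all tested genes at this limit was not counted. These contrasts share the mCherry_3 libraries with the contrast of the mCherry clones.

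Set against mCherry_4 instead, the same LmnB1 libraries showed small differences in both directions. In LmnB1_6, 5 members were called higher (17.1% of all tested genes were) and 4 lower (20.1% of all were). The members' median log2 fold change was 0.05, with a range of -0.33 to 0.32. CCNB1 (log2 fold change 0.32, SE 0.09, edgeR adjusted p = 0.00892), UBE2C (0.29), KIF2C (0.27), AURKA (0.19) and NUSAP1 (0.18) were higher in LmnB1_6. ANLN (-0.33, SE 0.07, edgeR adjusted p = 0.00124), HMMR (-0.25), KIF20A (-0.23) and CDK1 (-0.20) were lower. CCNB1 measured 104, 110.4 and 101 CPM in the mCherry_4 libraries and 137, 137 and 119 in those of LmnB1_6, which did not overlap. HMMR measured 80.9, 86.5 and 80.8 in mCherry_4 and 73.05, 68.4 and 67.5 in LmnB1_6, which did not overlap either. CCNB1, KIF2C, ANLN and HMMR kept their call in all 13 alternatives. UBE2C lost it without mCherry_4 replicate 2 or LmnB1_6 replicate 1, AURKA without mCherry_4 replicate 3 or LmnB1_6 replicate 1 or 2, and NUSAP1 without any 1 of these or of the other mCherry_4 libraries. KIF20A lost it without mCherry_4 replicate 2 or LmnB1_6 replicate 3, and CDK1 without mCherry_4 replicate 1 or 3 or LmnB1_6 replicate 3. With effective length offsets AURKA, NUSAP1, KIF20A and CDK1 were not called, and with limma on log2 TPM neither were the last 3. NUSAP1 also lost its call with a replicate block.

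In LmnB1_16 against mCherry_4, 4 members were called higher and none lower (by DESeq2 also 4 and none), where 6.67% of all tested genes were called higher and 9% lower. The members' median log2 fold change was 0.11, with a range of -0.15 to 0.36. The 4 were CDC25C (0.36, SE 0.11, edgeR adjusted p = 0.0297), TOP2A (0.31, SE 0.05, edgeR adjusted p = 0.000652), CDC25B (0.23) and BUB1 (0.19). TOP2A (ENSG00000131747.15, chromosome 17, 40388516 to 40417950) measured 528, 499.8 and 509 CPM in mCherry_4 and 633, 677 and 601 in LmnB1_16, without overlap. It was the only one of the 4 to keep its call in all 13 alternatives. Leaving out mCherry_4 replicate 1, 2 or 3 gave 2, 1 and 2 called members, and leaving out LmnB1_16 replicate 1 or 3 gave 1 and 2.

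**Figure D4:**
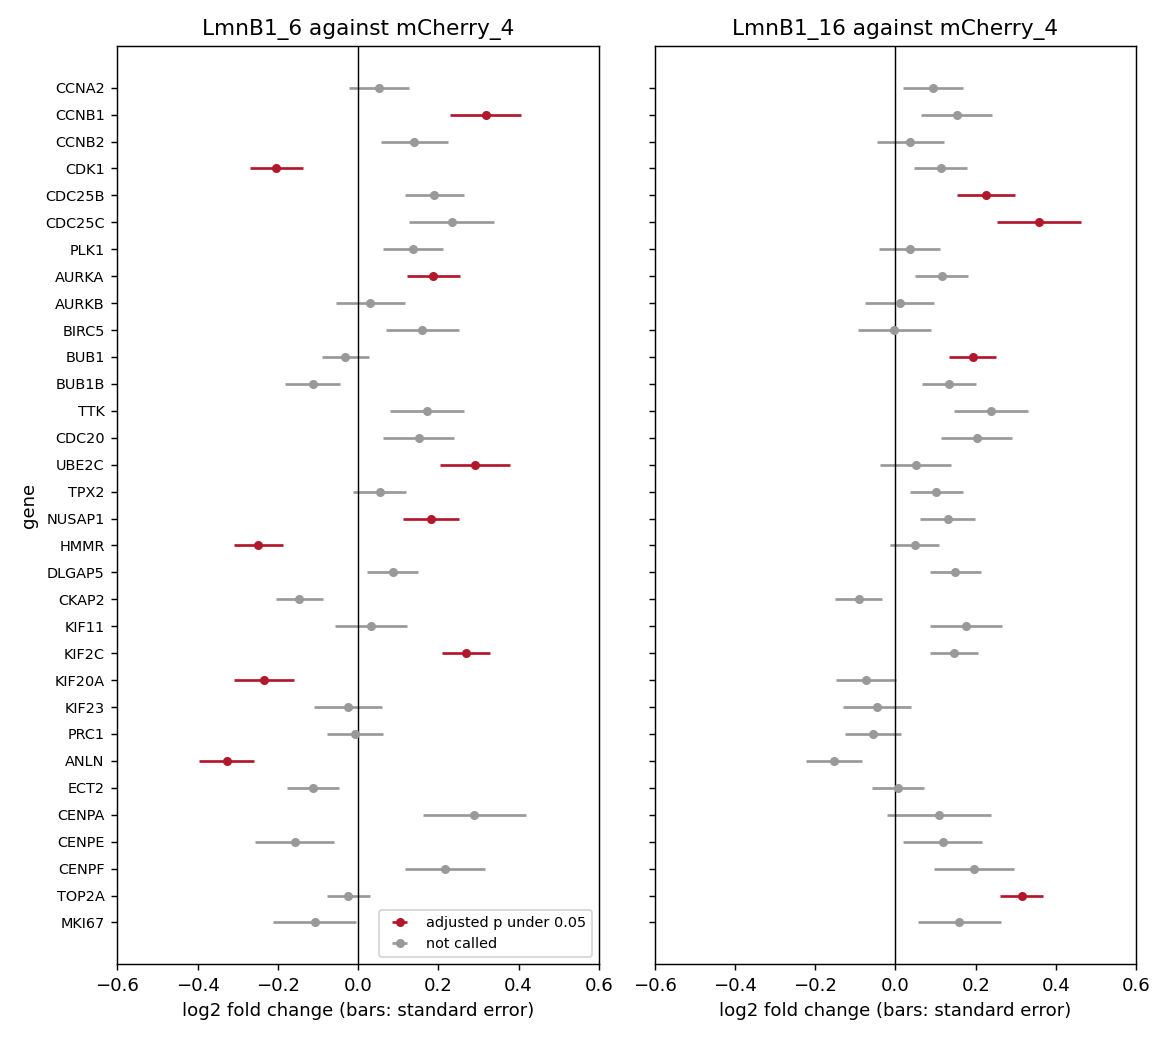
Log2 fold change of each member in LmnB1_6 (left) and LmnB1_16 (right) against mCherry_4, with standard errors; red points have an edgeR adjusted p under 0.05. All values lie between -0.33 and 0.36, with 5 higher and 4 lower in LmnB1_6 and 4 higher in LmnB1_16.

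The construct comparison pooled 6 LmnB1 and 6 mCherry libraries. CDC25C, TTK and KIF2C were called higher with the lamin B1 fusion and no member lower, where 8.58% of all tested genes were called higher and 9.25% lower. All 32 log2 fold changes were above 0, with a median of 0.51 and a range of 0.17 (ANLN) to 0.74 (CCNB1), and 29 did not pass the test. DESeq2 called 14 members higher and none lower. CDC25C (ENSG00000158402.21, chromosome 5, 138285265 to 138338355) measured 7.34, 7.27 and 8.03 CPM in mCherry_3, 14.98, 12.5 and 15.04 in mCherry_4, 17.5, 17.02 and 15.4 in LmnB1_6, and 19.9, 16.5 and 18.1 in LmnB1_16. The constructs differed by a log2 fold change of 0.68 (SE 0.20, edgeR adjusted p = 0.0326). Every LmnB1 library was above every mCherry library, but LmnB1_6 and mCherry_4 came within 1 CPM of each other.

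KIF2C (ENSG00000142945.13, chromosome 1, 44739818 to 44767767) measured 58.3, 65.0 and 64.9 CPM in mCherry_3, 121, 124 and 115 in mCherry_4, 149.7, 149.7 and 135 in LmnB1_6, and 138, 131 and 129.7 in LmnB1_16, a log2 fold change of 0.60 between the constructs (SE 0.19, edgeR adjusted p = 0.0462). TTK (ENSG00000112742.10, chromosome 6, 80003887 to 80042527) measured 28.9, 26.01 and 27.2 CPM in mCherry_3, 52.4, 51.7 and 43.3 in mCherry_4, 58.1, 59.1 and 49.03 in LmnB1_6, and 57.6, 63.7 and 52.8 in LmnB1_16, a log2 fold change of 0.57 (SE 0.18, edgeR adjusted p = 0.0467). For KIF2C the constructs did not overlap, and for TTK they did. In CCNB1, CDC25B, CDC25C, KIF2C and NUSAP1, all 6 LmnB1 libraries were above all 6 mCherry libraries (5 of 32), as for 3.8% of all tested genes.

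The construct result turned on which clones entered it. Without mCherry_4 all 32 members were called (median log2 fold change 1.11), and without mCherry_3 edgeR called none (median 0.09, with 8 members at an unadjusted p under 0.05). Each single library left out moved the count by over 1.5 times: to 0 without any 1 of mCherry_3, to 11, 12 and 5 without mCherry_4 replicate 1, 2 and 3, to 0, 0 and 1 for LmnB1_6 and to 0, 1 and 0 for LmnB1_16. With counts summed per clone edgeR called no member (0 at an unadjusted p under 0.05), and a limma fit that took clone as random called none (21 at an unadjusted p under 0.05). The share of all tested genes called in these fits, or by DESeq2, is not given here and can differ from fit to fit.

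Between the LmnB1 clones, members differed in both directions around a median near 0. Of the 32, 6 were called higher in LmnB1_16 (17.8% of all tested genes were) and 1 lower (16.6% of all were). The median log2 fold change was 0.05, with a range of -0.24 to 0.34. TOP2A (log2 fold change 0.34, SE 0.05, edgeR adjusted p = 0.000108), CDK1 (0.32), HMMR (0.30), CENPE (0.28), BUB1B (0.25) and BUB1 (0.22) were higher, and UBE2C was lower (-0.24, SE 0.09, edgeR adjusted p = 0.0447). TOP2A measured 526, 498 and 487 CPM in LmnB1_6 and 633, 677 and 601 in LmnB1_16. CDK1 measured 131, 128 and 118 in LmnB1_6 and 163, 146 and 161 in LmnB1_16, and BUB1 137, 136 and 122 against 160.2, 151 and 150.4. The libraries of the LmnB1 clones did not overlap for these 3 genes, and for TOP2A, BUB1 and BUB1B the 3 LmnB1_16 libraries were the highest of all 12. The shares of all tested genes with these patterns were not counted, so these are descriptions of single genes.

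TOP2A, CDK1, HMMR and BUB1 kept their call in all 13 alternatives. CENPE lost it without LmnB1_16 replicate 2 or any 1 of the LmnB1_6 libraries, and UBE2C without LmnB1_16 replicate 2 or 3 or LmnB1_6 replicate 1 or 2. The longer members tended to be higher in LmnB1_16 than in LmnB1_6. Spearman's rho between the deposited effective length (501 bases for UBE2C to 11660 for MKI67) and this log2 fold change was 0.58 over the 32 members and 0.08 over all 15388 tested genes. In LmnB1_6 against mCherry_4 rho was -0.50 over the members and -0.05 over all genes, and in LmnB1_6 against mCherry_3 -0.41 and -0.02. In LmnB1_16 it was 0.11 and 0.04 against mCherry_4, and -0.04 and 0.05 against mCherry_3. Between the mCherry clones it was -0.14 and 0.03. These values are across genes of the same libraries, which are not independent replicates. With offsets from the effective lengths, BUB1B, CENPE and UBE2C were no longer called, and with limma on log2 TPM neither were BUB1B and CENPE. LmnB1_6 replicate 3, the deepest library, was below its clone's mean for all 32 members, by 0.12 on the log2 scale on average; the part of this library and of length in these differences was not tested beyond the fits named.

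**Figure D5:**
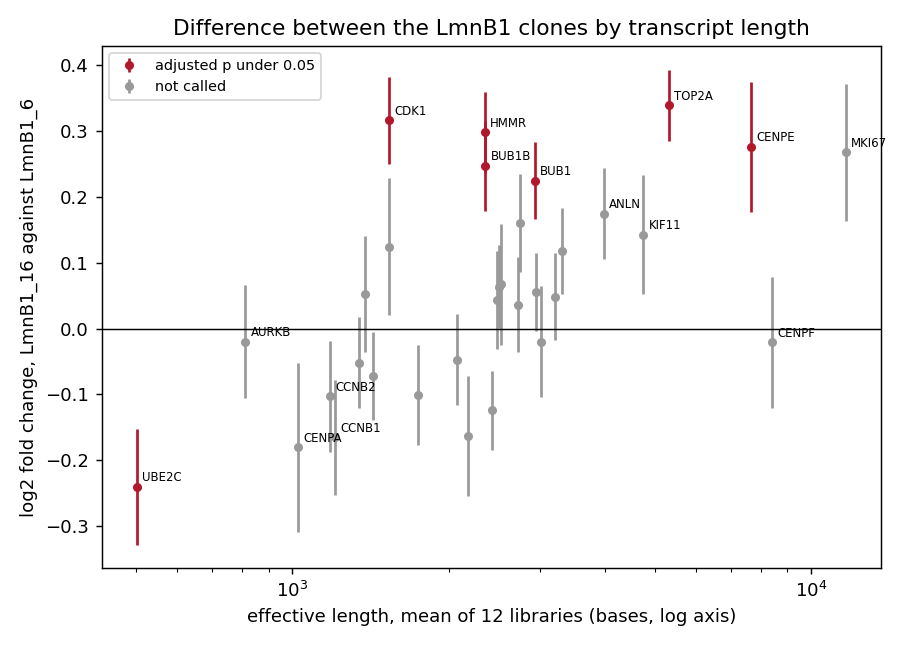
Log2 fold change of LmnB1_16 against LmnB1_6 for each member (with standard error) by its mean deposited effective length on a log axis; red points have an edgeR adjusted p under 0.05. UBE2C, the shortest at 501 bases, is the only one called lower, and TOP2A and CENPE are among the longest called higher.

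Of 88 other mitotic genes on 6 lists, 74 were higher and 1 lower in mCherry_4 than in mCherry_3, with a median log2 fold change of 0.69. Of all tested genes, 19.9% were called higher and 17.4% lower in this contrast. All 8 condensin genes, all 8 further mitotic kinase and passenger genes and all 18 further spindle and cytokinesis genes were higher, as were 19 of 23 kinetochore genes and 13 of 19 genes of the checkpoint, the anaphase-promoting complex and separase. Of 26 genes of G1/S and DNA replication, 20 were higher and 2 lower, with a median of 0.37. Of the 12 transcription factors of G2/M genes and DREAM genes, which are among the 88, 8 were higher. FOXM1, an activator of G2/M genes, averaged 101 ± 5.64 CPM in mCherry_3 libraries, 203 ± 11.4 in those of mCherry_4, 223 ± 21.4 for LmnB1_6 and 201 ± 12.8 for LmnB1_16. Its log2 fold change between the mCherry clones was 1.01 (SE 0.08, edgeR adjusted p = 3.68e-08), close to the members' median.

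Between the constructs, 19 of the 88 other mitotic genes were higher and none lower (median log2 fold change 0.38), as were 11 of the 26 G1/S genes. Of all tested genes, 8.58% were called higher and 9.25% lower. These calls come from the fit of 6 against 6 libraries, in which no member kept its call with counts summed per clone, with clone as random or without mCherry_3. Called genes included SMC4 (0.51) and SMC2 (0.54), the core of condensin, NCAPH2 (0.36), INCENP (0.49), PLK4 (0.49), MELK (0.48), KIF18A (0.59), KIF22 (0.52), CENPH (0.52), MIS18A (0.56), ZW10 (0.41) and ANAPC5 (0.19). The MuvB and DREAM genes LIN9 (0.44), RBBP4 (0.25) and RBL2 (0.32), also among the 88, were called. So were the replication genes MCM5 (0.49), MCM7 (0.53) and UNG (0.47). FOXM1 was not (0.48, edgeR adjusted p = 0.12). Of 8 brakes on CDK1 and genes of G2 arrest, CDKN1A, the p21 inhibitor of cyclin-dependent kinases, and GADD45A were called lower, with log2 fold changes of -0.61 and -0.58. The other 6 were not called. Of the 8, 5 had a log2 fold change above 0, with a median of 0.18 and a highest value of 1.19. Between the mCherry clones, 4 of the 8 were called higher in mCherry_4 and 0 lower. CDKN1A averaged 315 ± 43.1 CPM in mCherry_3 libraries, 309 ± 9.93 in those of mCherry_4, 224 ± 54.3 for LmnB1_6 and 184 ± 27.1 for LmnB1_16. Its log2 fold change between the mCherry clones was -0.03 (edgeR adjusted p = 0.905).

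Markers of other cell states also differed between the clones, not all of them in the members' pattern. KRT8 and KRT18 (2 of 2 simple epithelial genes) were lower in mCherry_4, and their summed level was 1154 to 1289 CPM in mCherry_3 libraries and 849 to 926 in those of mCherry_4 (588 to 635 for LmnB1_6 and 787 to 829 for LmnB1_16). The mesenchymal list (COL1A1, COL1A2 and VIM), made up almost wholly of VIM, summed to 3417 to 3519 CPM in mCherry_3 and 5331 to 6758 in the other clones. Of the 8 pigment epithelium genes 5 could be tested, and PMEL, MITF and SERPINF1 were lower in mCherry_4. The 8 summed to 72.6 to 83.7 CPM in mCherry_3 and 59.1 to 65.7 in mCherry_4. They summed to 3.88 to 4.45 CPM in LmnB1_6 and 45.7 to 52.8 in LmnB1_16. This list and the keratins were thus lowest in LmnB1_6. The part of these markers in the difference of the members was not tested. The neuronal list (SNAP25 and RBFOX3) moved with LmnB1_6, at 15.5 to 17.9 CPM in its libraries, 1.21 to 1.61 in those of LmnB1_16 and under 1 CPM in the mCherry libraries, nearly all of it SNAP25. Its part in the differences of LmnB1_6 was not tested. The leukocyte and endothelial lists summed to under 1 CPM in every library.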

How the data were processed

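RNA from 12 libraries was quantified by the authors. They deposited estimated counts per gene, TPM scaled by effective length, and the effective lengths, per the file headers. STAR, Salmon and DESeq2, with no version, and the build GRCh38 are listed in the submitters' processing notes. The sources used here do not give strand, annotation release or what replicates share. Whether reads of a gene and of an overlapping antisense gene were told apart is thus not known, and a p-value measures only how these libraries vary. The estimated counts deposited are not normalized, and 31.3% to 32.6% of the detected genes' values were not whole, so they were rounded. Genes passed edgeR's filterByExpr by clone (minimum count 10, total 15), which left 15388. TMM factors ran from 0.948 to 1.06. Fits used glmQLFit and glmQLFTest of edgeR 4.0.16 in R 4.3.3, either with the construct (6 against 6 libraries) or with the 4 clones as groups (6 contrasts), with Benjamini-Hochberg adjustment over all tested genes and a call under 0.05. The standard error of a log2 fold change was its size divided by the root of F. No pair of libraries of a clone agreed within sampling noise (chi-square per degree of freedom at least 3.85).

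The members and the gene lists were chosen with earlier results of these data known. Values in every library are given for members called between the constructs, for the member with the highest mean CPM of each role group, and for the largest and smallest difference between the mCherry clones. CCNB1, HMMR, TOP2A, BUB1 and CDK1 in further contrasts were chosen after their values were seen. Of other lists, up to 3 genes called between the constructs with the smallest adjusted p are named (1 gene that this rule takes is not reported here), and FOXM1 was added after its values were seen. Symbols matched 60507 of 60708 identifiers, and positions are from GENCODE 29. Promoter windows are RefSeq's (GRCh38.p14), and 33 of the 36 shared a run of 20 bases with a transcript of the gene on the strand given. The alternatives were DESeq2 1.42.0, RLE size factors, offsets from effective lengths, other filters, limma 3.58.1 on log2 of the deposited TPM plus 1, a replicate block, each library or clone left out, counts summed per clone and clone as a random effect. On simulated counts of 15388 genes, the contrast of the mCherry clones recovered 65.67% of 67 genes changed 1.5-fold and 83.58% of 67 changed 2-fold, with 5 false calls.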

Additional observations from a re-analysis of the deposited data

Results flagged for a closer look

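Each of the following members is listed because it differed between the LmnB1 clones by a direct test (edgeR adjusted p under 0.05 for LmnB1_16 against LmnB1_6 in the fit of all 12 libraries). The log2 fold change of LmnB1_16 over LmnB1_6 was 0.339 for TOP2A, 0.316 for CDK1, 0.298 for HMMR, 0.276 for CENPE, 0.247 for BUB1B and 0.225 for BUB1. It was -0.24 for UBE2C. This compares 1 clone with another, and 17.8% of all tested genes were called higher and 16.6% lower, against 6 and 1 of the 32 members.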

How the results depend on the processing

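All 32 members were called higher in mCherry_4, LmnB1_6 and LmnB1_16 than in mCherry_3 in every alternative run. Between the constructs, 3 members were called, against 14 with DESeq2, 8 with limma on log2 TPM, 1 with no low-count filter, 0 without clone mCherry_3, LmnB1_6 or LmnB1_16, 32 without clone mCherry_4, and 0 with counts summed per clone or clone as a random effect. Leaving out 1 library gave 0 to 12. The share of all tested genes called in each alternative is not given here. At an unadjusted p under 0.05, edgeR had 6 members without LmnB1_6 and 8 without LmnB1_16. With effective length offsets the calls were 4 (not 7) for LmnB1_16 against LmnB1_6, all higher, 5 (not 9) for LmnB1_6 against mCherry_4, and 1 (not 4) for LmnB1_16 against mCherry_4. The last gave 7 with no low-count filter and 2 with limma on log2 TPM, and 1 to 4 with 1 library left out. The other contrasts with 1 library left out gave 5 to 8 (LmnB1_16 against LmnB1_6) and 6 to 11 (LmnB1_6 against mCherry_4). In LmnB1_6 against mCherry_4, limma on log2 TPM called 4 higher and 2 lower. No named call changed its direction, and the cause of the changes was not tested. In limma on log2 TPM, the median of all genes in LmnB1_6 against mCherry_3 shifted to -0.11 and that of the members was 0.94.

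Same-numbered replicates were not taken as pairs, since 4 of 18 same-numbered pairs, not all, had a correlation of deviations over 0.1. Of these 4, 3 were the replicate 3 libraries of mCherry_4, LmnB1_6 and LmnB1_16 with each other (0.18, 0.25 and 0.18), above the highest value of differently numbered pairs (0.0843), a hint from the data that they share something. A replicate block in edgeR gave 0 calls between the constructs (14 at an unadjusted p under 0.05), 9 in LmnB1_16 against LmnB1_6, 11 in LmnB1_6 against mCherry_4 and 5 in LmnB1_16 against mCherry_4. Depth was ample for the members, whose lowest library value was 7.27 CPM (CDC25C), and the 2 clones per construct limit the construct comparison.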

Other observations

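The 16 members with a CHR and a CCAAT box in the same promoter window had a median log2 fold change of 0.99 between the mCherry clones (0.58 to 1.37), and the 11 members with windows but not both motifs one of 1.00 (0.77 to 1.58). KIF20A, with the largest difference, and KIF2C, called between the constructs, had no TTTGAA match in their windows. Only these exact letters were searched for the CHR. The split is thus by matches of letters and cannot tell whether a working CHR goes with the difference.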
